A study of Mus musculus with 2 samples.

Results

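The 10 genes described here encode resident proteins of the endoplasmic reticulum (ER), the compartment in which secreted and membrane proteins are folded. They comprise the chaperones Hspa5, Hsp90b1 and Hyou1, the lectin chaperones Calr (calreticulin) and Canx (calnexin), the protein disulfide isomerases Pdia3, Pdia4 and Pdia6, and the small cofactors Manf and Sdf2l1. They were chosen by name, and all 10 were found among the 26601 named genes of the deposited table. The libraries came from subcutaneous tumours of CT26, a mouse colon carcinoma line of BALB/c origin, in BALB/c hosts with an intact immune system and the genotype label WT. In the FuOXP NP group, mice received nanoparticles loaded with FuOXP, a drug that joins 5-fluorouracil to oxaliplatin, at 10 mg/kg into a vein 3 times at 5-day intervals. In the Empty NP group, mice received unloaded particles on the same schedule. Injections began at tumour volumes near 200 mm3, and tumours were collected 24 h after the last one. The design text gives 3 mice, but each group has 1 library, and pooling of tumours is not stated. Every comparison below is therefore one of 2 single libraries, with neither a replicate check nor a p-value.

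ER chaperones bind unfolded chains as these enter the ER, and the disulfide isomerases form and rearrange the bonds between cysteines. When unfolded proteins accumulate, the sensors ATF6, IRE1 and PERK start the unfolded protein response, in which ATF6 together with the factor NF-Y activates chaperone genes through the ER stress response element (ERSE). Calreticulin is also known for moving to the surface of dying tumour cells, where it promotes uptake by phagocytes, and oxaliplatin is among the drugs known for this effect in cultured tumour cells. Transcript levels do not measure where the protein is.

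The promoters of these genes are shown first because the ERSE is a sequence that most of them share. The element is already known from ER chaperone genes, so its presence here is a description and not an independent result. The ERSE was searched as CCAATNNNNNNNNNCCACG on both strands in the 250 bases before the transcription start, in RefSeq promoters of build GRCm38.p6. The promoter table held 8 of the 10 genes, Hyou1 and Manf not being among them. An exact match stood in 5 of these 8, against 0.130% of 27025 genes with a promoter in the table. The matches follow, 5′ to 3′ on the strand of the gene, with both 5-base ends of the element in capitals. Where the element lies on the opposite strand, the capitals read CGTGG and ATTGG.
Hspa5 (chr2:34772005-34772063, plus strand): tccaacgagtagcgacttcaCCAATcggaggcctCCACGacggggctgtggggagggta
Hsp90b1, distal (chr10:86705618-86705676, minus strand): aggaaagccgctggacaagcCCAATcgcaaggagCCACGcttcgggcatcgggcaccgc
Hsp90b1, proximal (chr10:86705513-86705571, minus strand): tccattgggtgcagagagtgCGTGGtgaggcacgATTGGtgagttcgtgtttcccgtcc
Calr (chr8:84847055-84847113, minus strand): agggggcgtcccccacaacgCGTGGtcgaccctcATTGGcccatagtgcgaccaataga
Canx (chr11:50325780-50325838, minus strand): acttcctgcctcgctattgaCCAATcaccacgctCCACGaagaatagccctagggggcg
Pdia6 (chr12:17266471-17266529, plus strand): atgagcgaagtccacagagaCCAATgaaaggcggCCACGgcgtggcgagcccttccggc

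The element ended 46 bases before the start in Hspa5, 79 in Pdia6, 126 in Canx and 143 in Calr. Hsp90b1 had 2 exact copies, 193 and 88 bases before the start. With 1 of the 10 fixed letters allowed to differ, Pdia3 and Pdia4 also held the element, which made 7 of 8, against 1.51% of all genes. In both genes the element departs in its last letter only. The Pdia3 copy is shown because it ends nearer to the start, 10 bases before it against 89 for Pdia4.
Pdia3 (chr2:121413853-121413901, plus strand): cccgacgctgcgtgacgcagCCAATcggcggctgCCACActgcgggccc

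Sdf2l1 had neither form in this window. The CCAAT box alone, the end that NF-Y binds, was present 2 to 5 times in each of the 8 promoters, against 10.1% of all promoters with 2 or more copies. The related elements ERSE-II (ATTGGNCCACG) and UPRE (TGACGTGG) were found in none of the 8 windows, against 0.0370% and 0.603% of all genes. A CCAAT match inside an ERSE was counted for both.

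Levels are in TPM, a transcript abundance divided by gene length and scaled so that both libraries have one common sum. Low values lay on steps of 1 read, so that read numbers could be recovered from exon lengths (GENCODE vM21, GRCm38), and those of the 10 genes came out whole to within 0.01. All genes with a known length held 935236 recovered reads in FuOXP NP and 448355 in Empty NP, or 210654 in FuOXP NP and 318676 in Empty NP without Lars2. These numbers are far below the sequencing depth that the labels state, for a reason not given in the labels. The 20 most abundant rows took 81.3% of the summed TPM in FuOXP NP and 47.2% in Empty NP, and the median named gene (over 9488 with a mean of at least 1 TPM) was 2.71-fold lower in FuOXP NP. A value as deposited therefore mixes the gene with this shift, and each is set beside that of the median gene, as a log2 difference. Of 11 epithelial and colon carcinoma markers, 7 were listed at 0 in both libraries, among them Krt8, Epcam and Cdh1. Krt18, Krt20, Vil1 and Cldn7 were above 0 in 1 library each, on 1 to 4 reads. These markers had too few reads to test the carcinoma identity of the label. In bulk tumour RNA, fewer cells of a type and less RNA per cell cannot be told apart.

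The 10 ER chaperones together had 576 reads in FuOXP NP and 682 in Empty NP, most of them from Hsp90b1, Hspa5 and Calr. As deposited, all 10 were lower in FuOXP NP, as were 92.6% of those 9488 genes. It holds on the deposited scale only: rescaling both libraries without their 20 most abundant rows multiplies every gene by a common factor, and 9 of the 10 were then higher in FuOXP NP. Hsp90b1 was the most abundant in both libraries, followed by Calr and Hspa5. Of these 3, Hspa5 had the lowest rank, at percentile 96.6 of named genes in FuOXP NP and 94.95 in Empty NP. The lowest member above 0 in both was Hyou1, 55.6-fold below Hsp90b1 in FuOXP NP and 57.2-fold in Empty NP.

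**Figure D1:**
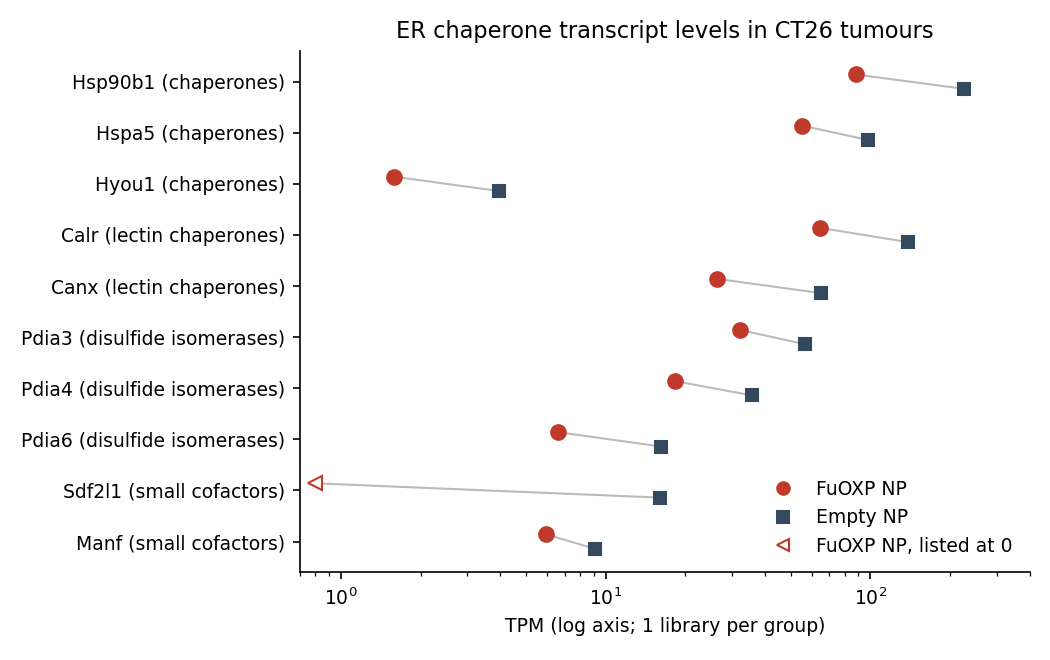
TPM of each gene on a log axis, with circles for the FuOXP NP library and squares for the Empty NP library, grouped by role. Every circle lies left of its square, and the open triangle marks Sdf2l1, listed at 0 in FuOXP NP, which a log axis cannot show. After rescaling both libraries without their 20 most abundant rows, all but Sdf2l1 would lie on the other side.

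Hspa5 (BiP) is the ER member of the Hsp70 family and the main sensor-binding chaperone of the unfolded protein response. It stood at 55.0 TPM in FuOXP NP and 97.7 TPM in Empty NP, on 122 and 116 reads. Despite the lower TPM, its read number was slightly larger in FuOXP NP, where 1 read on 1000 exon bases was worth 1.91 TPM against 3.56 TPM in Empty NP. The ratio was 1.78-fold lower, with an exact 95% counting interval of 1.36 to 2.31, and the gene lay 0.62 above the median gene on the log2(TPM + 1) scale. Hspa5 spans 34771970 to 34777547 of chromosome 2 (GRCm38, plus strand), and its exons overlap no other annotated gene.

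Hsp90b1 (Grp94), the ER member of the Hsp90 family, was the member nearest to the median gene. It stood at 88.0 TPM in FuOXP NP and 225 TPM in Empty NP, on 186 and 255 reads, or 2.56-fold lower (2.11 to 3.11). Relative to the median gene it lay only 0.09 above. Its exons share 415 bases with 1810014B01Rik, a pseudogene on the other strand listed at 4413 TPM in FuOXP NP and 9267 TPM in Empty NP, and the part of shared reads in the Hsp90b1 values was not tested. Hyou1 (Grp170), which exchanges nucleotide on Hspa5 and holds unfolded chains, was at 1.58 TPM in FuOXP NP and 3.94 TPM in Empty NP on 6 and 8 reads. Its interval ran from 0.757-fold to 8.70-fold lower, so that no difference was detectable at this depth.

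Calr holds glycoproteins in the ER lumen by their trimmed sugar chains and stores calcium. It stood at 64.3 TPM in FuOXP NP and 138 TPM in Empty NP, on 97 and 112 reads. That is 2.16-fold lower as deposited (1.63 to 2.86), and 0.34 above the median gene. Calr spans 84841850 to 84846934 of chromosome 8 (minus strand), and its exons overlap no other annotated gene. Canx, its membrane-bound relative, was at 26.4 TPM in FuOXP NP and 65.3 TPM in Empty NP on 65 and 86 reads, 2.47-fold lower (1.77 to 3.46) and 0.17 above the median gene. The intervals of these ratios overlapped, so that the soluble and the membrane-bound lectin were not separated.

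Among the disulfide isomerases, Pdia3 (ERp57) works with both lectin chaperones on glycoproteins and in the loading of peptides onto class I molecules of the major histocompatibility complex (MHC). It stood at 32.2 TPM in FuOXP NP and 56.7 TPM in Empty NP, on 53 and 50 reads, 1.76-fold lower (1.17 to 2.64) and 0.64 above the median gene. Pdia4 (ERp72), which associates with Hspa5 complexes, was at 18.3 TPM in FuOXP NP and 35.6 TPM in Empty NP on 23 and 24 reads. Pdia6 (P5), a partner of Hspa5 that also attenuates the stress sensors, was at 6.62 TPM in FuOXP NP and 16.2 TPM in Empty NP on 13 and 17 reads. Relative to the median gene, Pdia4 lay 0.51 and Pdia6 0.27 above. Their intervals, 1.05 to 3.61-fold and 1.12 to 5.47-fold lower, both held the ratios of Hspa5, Hsp90b1, Calr, Canx and Pdia3.

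The small cofactors lay at both ends of the range. Manf, a secreted and ER-resident factor that binds Hspa5, was at 5.95 TPM in FuOXP NP and 9.10 TPM in Empty NP on 11 and 9 reads. It was the highest member relative to the median gene, at 0.90, but its interval ran from 0.559-fold to 4.05-fold lower, and its exons share 146 bases with Dcaf1 and 166 with 4930524O07Rik. Sdf2l1, a stress-induced partner of the ER J-domain proteins, was listed at 0 in FuOXP NP and stood at 16.1 TPM in Empty NP, on 5 reads. A floor of 3 reads in FuOXP NP, worth 5.17 TPM on its short exons of 1108 bases, lay 3.11-fold under the Empty NP value. With the counting error of the 5 reads included, Sdf2l1 was at least 1.71-fold lower, a bound that left room for the ratios of all other members except Manf. Of the 9488 genes, 13.0% were listed at 0 in FuOXP NP.

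Of the 10 genes, 9 lay above the median gene and Sdf2l1 below, with a median of 0.42 against 0 for all named genes by construction; with 5 TPM added in place of 1 TPM, 3 lay above and 7 below, and the median was -0.10. No member exceeded the median gene by 2-fold or more, where 12.6% of all named genes did, and 1, Sdf2l1, was 2-fold or more below it, where 12.2% were. The 9 lay between percentile 54.5 and 84.4 of the differences of all named genes. As deposited, 5 of 10 were at least 2-fold lower, against 69.8% of all named genes, and none was at least 2-fold higher, against 2.34%. The 9 genes all lay within 2-fold of the median gene, as did 75.2% of all named genes.

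The read numbers gave a comparison that needs no added constant. Pooled over the 10 genes, the ratio was 2.21-fold lower in FuOXP NP (1.98 to 2.47), whereas the median of 1411 genes with at least 50 reads was 3.19-fold lower. On that scale the group lay 1.44-fold above the typical gene (1.29 to 1.62), and 1.56-fold above it (1.36 to 1.80) without Hsp90b1. The 733 genes with at least 100 reads had a median 2.92-fold lower, closer to the chaperones, and this depth was chosen after seeing the data. The pooled log2 ratio of -1.14 lay just outside the interquartile range of genes with at least 50 reads, which ran from -2.22 to -1.22. It lay inside that of the 733 genes with at least 100 reads, which ran from -2.08 to -1.11. Counting error is the only error these intervals cover.

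**Figure D2:**
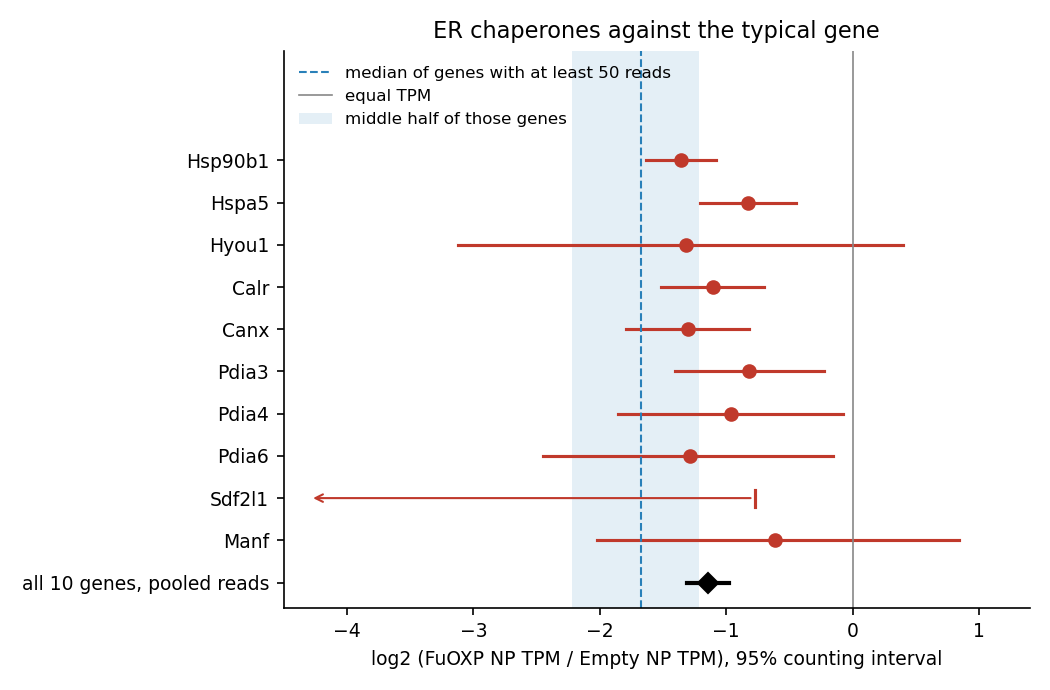
Log2 ratio of FuOXP NP to Empty NP TPM for each gene, with exact 95% counting intervals, and for the pooled reads of all 10 (diamond). The dashed line is the median of genes with at least 50 reads and the band their interquartile range. All 9 points lie right of the dashed line and left of equal TPM, and the arrow gives the open interval of Sdf2l1; equal TPM is set by the deposited scaling, and rescaling without the 20 most abundant rows moves all points and the line alike.

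All 8 members with at least 20 reads lay above the median gene, against 42.6% of 3210 genes at that depth. None of the 8 exceeded it by 2-fold or more, against 6.26%, and none was 2-fold or more below, against 13.7%. Of the same 8, 4 had an interval wholly above the median of genes with at least 50 reads, namely Hspa5, Hsp90b1, Calr and Pdia3, against 14.6% of genes. These 4 were among the 5 members with at least 100 reads, where 37.0% of genes had such an interval, the fifth being Canx. The call of Hsp90b1 rests on that centre, since its interval of 2.11 to 3.11-fold lower includes the 2.92-fold median of genes with at least 100 reads. No member had an interval wholly below it, against 17.2% of genes with at least 20 reads and 24.7% with at least 100.

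By role, the pooled reads gave similar ratios. The 3 disulfide isomerases were 1.91-fold lower (1.41 to 2.59), the 3 chaperones 2.25-fold lower (1.94 to 2.63) and the 2 lectin chaperones 2.28-fold lower (1.84 to 2.83). The 2 small cofactors, on 11 and 14 reads, were 2.38-fold lower (1.002 to 5.78). All 4 intervals overlapped, so the roles were not separated at this depth. The 5 genes without any exon overlap, Hspa5, Hyou1, Calr, Canx and Sdf2l1, were together 2.105-fold lower (1.79 to 2.47).

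The make-up of the chaperone transcripts, which does not depend on the scaling of the libraries, was close in both. Hsp90b1 made up 32.3% of the reads of the 10 genes in FuOXP NP (28.5 to 36.3) and 37.4% in Empty NP (33.7 to 41.1). Hspa5 made up 21.2% in FuOXP NP (17.9 to 24.7) and 17.0% in Empty NP (14.3 to 20.04). Calr was at 16.8% in FuOXP NP (13.9 to 20.2) and 16.4% in Empty NP (13.7 to 19.4). The intervals of each gene overlapped between the libraries, but overlap of separate intervals does not test a change in share. The order of the levels differed for 5 of the 10 genes. Pdia3 was above Canx in FuOXP NP and below it in Empty NP, and Sdf2l1, last in FuOXP NP, was above Manf and Hyou1 in Empty NP, where neighbours among Pdia6, Sdf2l1, Manf and Hyou1 did not differ beyond counting error. Nor did Pdia3 and Canx in either library. Neighbours whose levels did differ beyond it in both were Hsp90b1 over Calr, at 1.37-fold in FuOXP NP (1.07 to 1.77) and 1.63-fold in Empty NP (1.30 to 2.05), and Pdia4 over Pdia6. Calr over Hspa5 was 1.17-fold in FuOXP NP (0.885 to 1.54) and 1.42-fold in Empty NP (1.08 to 1.85).

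**Figure D3:**
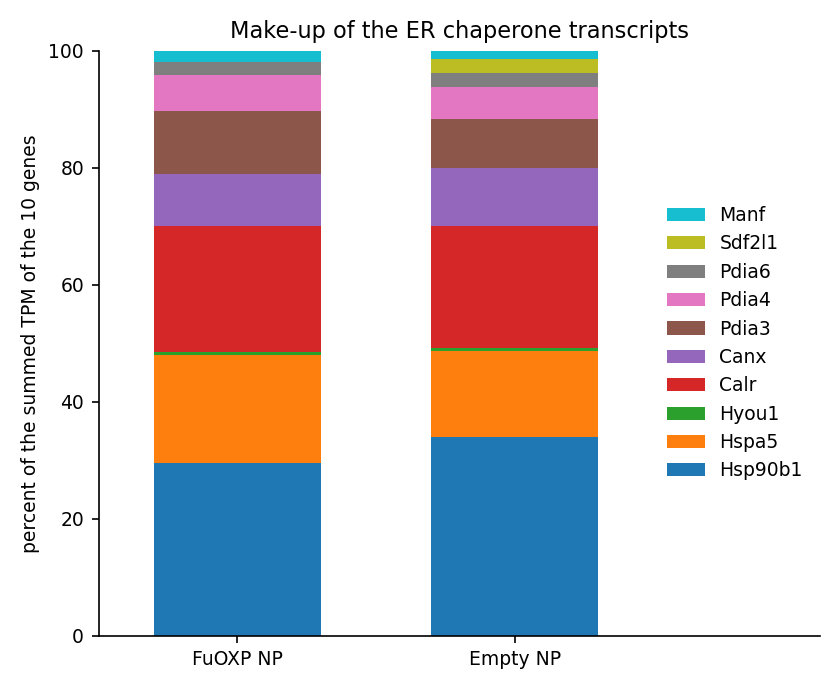
Share of each gene in the summed TPM of the 10 genes, in percent, for FuOXP NP on the left and Empty NP on the right. Hsp90b1 holds 29.5% in FuOXP NP and 33.9% in Empty NP, Calr 21.5% and 20.8%, and Sdf2l1 is present in the Empty NP bar only.

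The other genes of ER folding were read from 12 lists, of which the figure of gene groups shows every measured member. The calnexin cycle, which trims and reglucosylates the sugar chains that Calr and Canx bind, had the median closest to that of the chaperones, at 0.45 relative to the median gene, with 11 of 14 measured genes above it, 4 of them at least 2-fold, and 1 at least 2-fold below. Its Lman1, a cargo lectin that carries glycoproteins out of the ER, went the other way at 0.893 TPM in FuOXP NP and 10.0 TPM in Empty NP. Prkcsh and Os9, a glucosidase II subunit and a lectin of degradation, lay 0.32 and 0.37 above. Pooled reads of the list were 2.57-fold lower (1.99 to 3.33), an interval that overlapped that of the 10 chaperones.

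Among the other thiol oxidoreductases, 14 of 23 lay above the median gene and 9 below, with a median of 0.16, and 5 were at least 2-fold above and none at least 2-fold below. P4hb, the founding protein disulfide isomerase, resembled the members, at 42.7 TPM in FuOXP NP and 69.7 TPM in Empty NP on 64 and 56 reads, 1.63-fold lower (1.12 to 2.38). Selenof, a selenoprotein of glycoprotein quality control, lay 1.05 above the median gene at 13.8 TPM in FuOXP NP and 18.4 TPM in Empty NP. Ero1lb, an oxidase that recharges the isomerases, was lower, at -0.54. Peptidyl-prolyl isomerases had a median of 0.27 with 5 of 7 above, and Ppib, the cyclophilin of the ER, was 2.28-fold lower on about 45 and 55 reads in FuOXP NP and Empty NP, its exons overlapping those of Snx22.

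The J-domain proteins and exchange factors, which load and unload Hspa5, had 5 of 11 above and 6 below the median gene, with a median of -0.10. Dnajc1 was at 22.4 TPM in FuOXP NP and 89.6 TPM in Empty NP, but its exons overlap those of Mllt10. Dnajc10, the J-domain reductase, was at 8.39 TPM in FuOXP NP and 18.5 TPM in Empty NP on 22 and 26 reads, 2.21-fold lower (1.20 to 4.08), the same ratio as the pooled members. Dnajb11, which helps Hspa5 bind unfolded chains, was at 2.95 TPM in FuOXP NP and 12.1 TPM in Empty NP, or -0.29 relative to the median gene, on 5 and 11 reads and with an interval from 1.32-fold to 15.1-fold lower. Other lectins and cofactors had 3 above and 4 below, with Creld2, an ER stress gene, 1.15 above on 6 and 4 reads in FuOXP NP and Empty NP and an interval from 0.258-fold to 5.25-fold lower.

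ER-associated degradation, which removes proteins that fail to fold, had 11 of 19 genes above the median gene and 8 below, with a median of 0.03. Syvn1, its ubiquitin ligase, was at 5.20 TPM in FuOXP NP and 21.6 TPM in Empty NP, or -0.43 relative to the median gene. Herpud2, a relative of the ligase partner Herpud1, was at 2.09 TPM in FuOXP NP and 27.3 TPM in Empty NP, or -1.75. Pooled, the list was 3.42-fold lower (2.82 to 4.17), an interval that did not overlap that of the 10 chaperones. The translocon and signal peptide processing genes were pooled at 2.59-fold lower (2.13 to 3.17), with 15 of 21 above the median gene, and the oligosaccharyltransferase, which adds the sugar chains, at 3.32-fold lower (2.47 to 4.49), with 6 of 12 above. Kdelr3, a receptor that returns escaped chaperones to the ER, stood at -1.70 relative to the median gene, with 5.397 TPM in FuOXP NP and 55.4 TPM in Empty NP, in a list of receptors and calcium handling genes with 8 of 12 above.

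The regulators of the unfolded protein response did not share the position of the chaperones, with 5 of 14 above the median gene and 9 below, and a median of -0.04. Atf4, the factor translated under the integrated stress response, was at 28.8 TPM in FuOXP NP and 39.2 TPM in Empty NP, 1.01 above the median gene. Ddit3, its pro-apoptotic target, was at -1.55, with 12.3 TPM in FuOXP NP and 104 TPM in Empty NP. Read numbers of Ddit3 were not recovered, so it has no counting interval. Nfyb, a subunit of NF-Y, was at 2.635 TPM in FuOXP NP and 19.7 TPM in Empty NP on 7 and 28 reads, 7.47-fold lower as deposited (3.19 to 20.3). Atf6, the sensor that acts through the ERSE, was at 1.03 TPM in FuOXP NP and 6.56 TPM in Empty NP on 5 and 17 reads, 6.35-fold lower as deposited (2.25 to 22.0). Relative to the median gene, Nfyb lay at -1.07 and Atf6 at -0.45. The Atf6 interval included the 3.19-fold-lower median of genes with at least 50 reads, and the lower bound of Nfyb lay at that median. Xbp1, Ern1 and Eif2ak3 had 1 to 3 reads each in FuOXP NP and 3 to 6 in Empty NP, and each of their intervals included equal TPM.

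Of the 35 genes with an exact ERSE in their promoter, 10 that are not among the chaperones had a mean of at least 1 TPM. These 10 had a median of -0.35 relative to the median gene, with 4 above and 6 below, whereas the 5 chaperones with the element lay between 0.09 and 0.62. Of the 6 below, Adcy3, Hnrnpa3, Ptgdr2 and Syvn1 have exons that overlap other genes, and Derl3 and Dnajc3 do not. The 4 above, Alg12, Creld2, Pan2 and Zfp57, have no such overlap but rest on 1 to 6 reads per library. The part of exon overlap and depth in this contrast was not tested. At least 2-fold above the median gene were 2 of the 10, and 2 were at least 2-fold below. Dnajc3, an inhibitor of the kinase PERK and cofactor of Hspa5, was at -0.26 on 9 and 19 reads in FuOXP NP and Empty NP. Derl3, a degradation channel protein, was listed at 0 in FuOXP NP on 3 reads in Empty NP. Creld2, the ER stress gene named above, also holds the element and went the other way, at 1.15 on 6 and 4 reads. These genes were singled out after their values were seen.

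**Figure D4:**
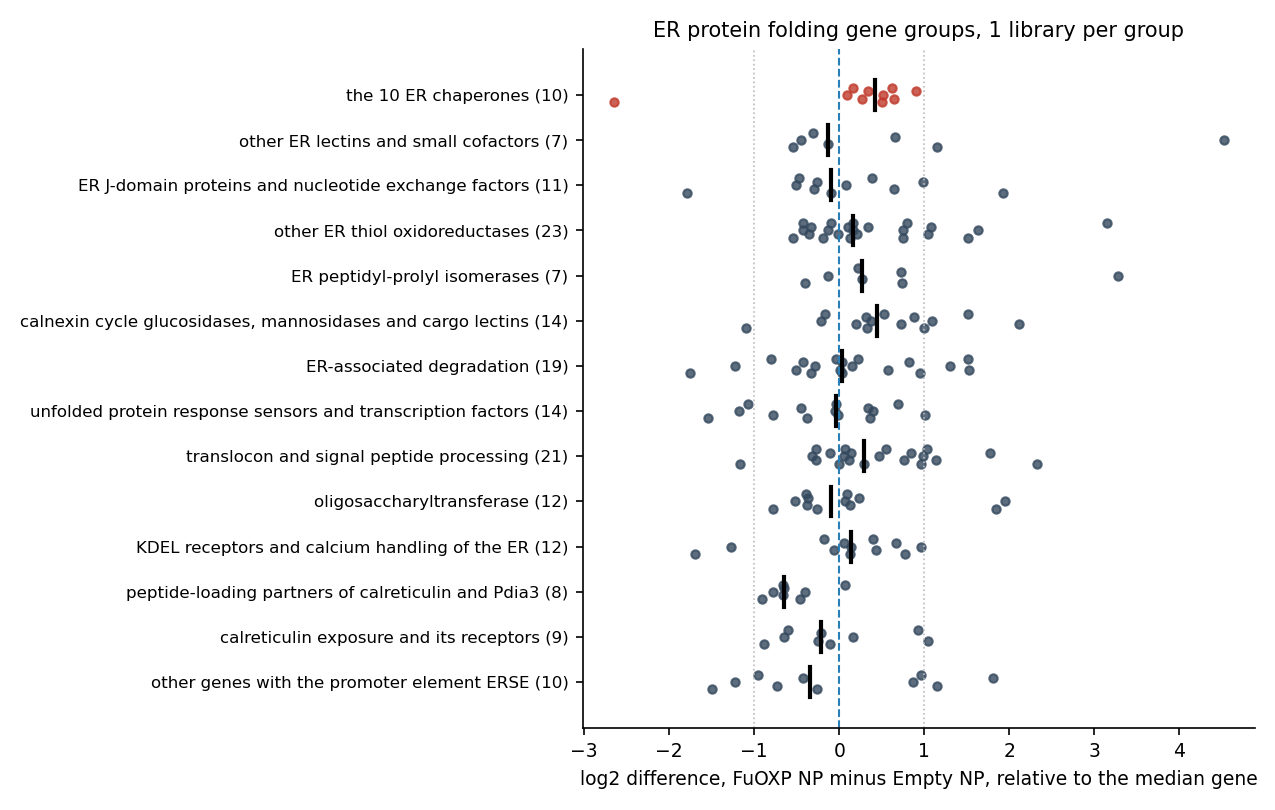
Log2 difference of each measured gene, FuOXP NP minus Empty NP relative to the median gene (dashed line), by gene group, with the number of genes in brackets, a black bar at the median and dotted lines at 2-fold. The 10 chaperones lie in a narrow range right of 0 except Sdf2l1 at -2.65, and the peptide-loading partners lie left of 0 with 1 exception; with 5 TPM added in place of 1 TPM, 7 of the 10 chaperones lie left of 0.

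The partners of Calr and Pdia3 in loading peptides onto MHC class I lay on the other side of the median gene, with 1 of 8 above and 7 below and a median of -0.65. Tapbp (tapasin), which bridges the loading complex to Calr and Pdia3, was 4.52-fold lower (2.596 to 8.17), at 9.84 TPM in FuOXP NP and 45.4 TPM in Empty NP. H2-K1, a class I heavy chain, was at 5.12 TPM in FuOXP NP and 30.04 TPM in Empty NP, and Erap1, which trims the peptides, was 5.50-fold lower (3.17 to 9.97). Exons of Tapbp, Tap1, Tap2 and Erap1 overlap other genes. Pooled reads of the 8 genes were 156 in FuOXP NP and 354 in Empty NP, 4.24-fold lower (3.50 to 5.15), and 3.82-fold lower (3.02 to 4.86) over the 4 genes without exon overlap. The interval over these 4 genes included the 3.19-fold-lower median of genes with at least 50 reads, so they were not separated from the typical gene. The interval over all 8 did not include it. Neither interval overlapped that of the 10 chaperones, and a difference between groups of genes in single libraries has no replicate check.

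Genes of calreticulin exposure and its recognition had 3 of 9 above the median gene and 6 below. Cd47, which opposes the calreticulin signal on the cell surface, was at 2.53 TPM in FuOXP NP and 13.5 TPM in Empty NP, or -0.60 relative to the median gene. Casp8 and Bcap31, both described upstream of calreticulin exposure, were at -0.89 and 0.93. Casp8 had 4 reads in FuOXP NP and 14 in Empty NP, 6.53-fold lower (2.05 to 27.3). Bcap31 had 9 reads in FuOXP NP and 7 in Empty NP, 1.45-fold lower (0.460 to 4.38). Both intervals, and that of Cd47 (2.43 to 14.4), included the 3.19-fold-lower median of genes with at least 50 reads. Anxa1, another signal of dying cells, was at 50.5 TPM in FuOXP NP and 66.9 TPM in Empty NP, on about 77 and 55 reads. As deposited it was 1.33-fold lower (0.926 to 1.91). Relative to the median gene it lay 1.04 above, the only measured gene of this list at least 2-fold above. Lrp1, a receptor for calreticulin on phagocytes, was at 5.92 TPM in FuOXP NP and 21.3 TPM in Empty NP on 55 and 106 reads, or -0.25 relative to the median gene.

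Markers of other cell types differed between the libraries as well, and their part in the chaperone values was not tested. Plasma cells and B cells, whose secretory load goes with high chaperone levels, were almost unmeasured, with 9 of 12 markers in the table, a sum of 1.002 TPM in FuOXP NP and 7.73 TPM in Empty NP, and Jchain and Mzb1 at 0 in both. Of macrophage and monocyte markers, 11 of 14 lay above the median gene, with a sum of 402 TPM in FuOXP NP and 654 TPM in Empty NP, and their pooled ratio of 1.82-fold lower (1.59 to 2.09) overlapped that of the 10 chaperones. Fibroblast markers had 6 of 9 above, with a sum of 65.6 TPM in FuOXP NP and 129 TPM in Empty NP, and a pooled ratio of 2.28-fold lower (1.91 to 2.72). Pan-leukocyte markers, with 5 of 9 above, summed to 33.6 TPM in FuOXP NP and 136 TPM in Empty NP. Endothelial markers, with 2 of 5 above, summed to 9.24 TPM in FuOXP NP and 40.2 TPM in Empty NP, and skeletal muscle markers, with 0 of 13 above, summed to 0.317 TPM in FuOXP NP and 132 TPM in Empty NP, 12 of the 13 being listed at 0 in FuOXP NP.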

How the data were processed

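Each library has 1 column of TPM as the authors deposited it. Build GRCm38, Cuffdiff, Cufflinks 2.2.1 and STAR 2.6.1a appear without roles in the submitters' processing notes, and which annotation was used is not stated there. Of 53927 rows, 22240 without a symbol and 26 with a date as symbol were left out, 54 that repeated the values of the row before under another symbol were dropped, and the highest row per symbol was kept. Differences were log2((FuOXP NP + 1)/(Empty NP + 1)), relative to the median over named genes whose mean reached 1 TPM; no test was possible with 1 library per group. Reads were TPM times exon length over the value of 1 read, which made 80.8% of values under 10 reads in FuOXP NP and 80.9% in Empty NP whole to within 0.01, where chance gives 2%. Pooled reads were rounded. Intervals are exact 95% Clopper-Pearson and cover counting error only. The genes and lists were chosen with earlier results of these data known. Of each list, up to 4 genes with the largest difference and a mean of 5 TPM or more were candidates for naming, and other names were chosen after their values were seen. No other transcript aligned with a member over 75 bases at 95% identity or more with BLAST 2.17.0, except overlapping genes of Hsp90b1 and Manf. Protein sequences were not analysed here. The steps were tested on simulated data. The software was scipy 1.17.1, pandas 2.3.3 and numpy 2.4.6 under Python 3.11.15.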

Additional observations from a re-analysis of the deposited data

Results flagged for a closer look

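Rows that name no gene were used in no comparison of the report. Their part of the FuOXP NP library was 71.3% of TPM, and of the Empty NP library 62.9%. They are listed here because this signal was higher in FuOXP NP than in the control library.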

How the results depend on the processing

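The median of the 10 chaperones relative to the median gene, 0.42, was 0.63 with 0.1 TPM added, -0.10 with 5 TPM added, 0.65 and 0.67 after rescaling without the 20 or 100 most abundant rows, and 0.60 on recovered reads. Without a filter it was -1.02, because 14020 of 26601 genes were at 0 in both libraries and the median gene was then at 0. The count at least 2-fold above the median gene, 0, became 2 with 0.1 TPM added, 3 after either rescaling, and 1 under a minimum mean of 5 TPM, with the centre on genes with at least 50 reads, on recovered reads, and among genes with at least 20 reads, the last chosen after seeing the data. The count at least 2-fold below it, 1, became 5 without a filter, and 0 among genes with at least 20 reads, as Sdf2l1 has fewer. The count at least 2-fold lower as deposited, 5, became 1 after either rescaling and 3 over the 5 genes without exon overlap. Over single genes, 72 values stayed within counting error and 20 did not, and Sdf2l1 was below the median gene in all 9 alternatives that gave it a value. Leaving out replicates was not possible, and no paired analysis was possible because there is 1 library per group. Depth limits Hyou1, Manf, Sdf2l1, Pdia4 and Pdia6, each with under 50 reads.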
